A study of Mus musculus with 6 samples.

Results

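The genes described here are 35 genes of the endoplasmic reticulum (ER) chaperone system and the unfolded protein response, taken by gene name from a table of 55039 genes measured by RNA sequencing in mouse epididymal white adipose tissue (eWAT). All 35 passed the filter on low counts, as did 17296 genes in all. The tissue came from male C57BL/6 mice aged 6 to 7 weeks at the start. The 3 CAC mice carried a tumor from 5000000 Lewis lung carcinoma (LLC) cells, a mouse lung tumor line, injected under the skin of the lower back. The 3 CONT mice received phosphate-buffered saline alone, and both groups were killed 28 days after injection. CAC stands for cancer-associated cachexia, the wasting that accompanies a tumor, and the comparison asks how transcript levels in the fat of these mice differ from those of healthy mice. Each library is one eWAT sample, and the same kind of mouse and the same day of collection are shared by both groups.

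Secreted and membrane proteins fold in the ER. The chaperone BiP, encoded by Hspa5, holds unfolded chains, protein disulfide isomerases join their cysteines, and proteins that fail to fold are passed back to the cytosol and destroyed, a route called ER-associated degradation. When unfolded protein builds up, the sensors IRE1 (Ern1), ATF6 and PERK (Eif2ak3) start the unfolded protein response. IRE1 splices the Xbp1 transcript to make an active transcription factor, cleaved ATF6 is a transcription factor itself, and PERK slows translation and leads to translation of the transcription factor ATF4. Adipocytes secrete large amounts of hormones such as adiponectin and so depend on this machinery. Gene counts do not separate spliced from unspliced Xbp1.

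ATF6 and XBP1 are known to act through the ER stress response element (ERSE), in which CCAAT and CCACG are separated by 9 bases of any kind. In ERSE-II, ATTGG and CCACG are separated by 1 base of any kind. Of the 35 genes, 30 matched a promoter in the RefSeq table (GRCm38.p6, 250 bases before to 50 bases after the start site), 2 of them by an older symbol. ERSE was found on either strand in 10 of the 30 (33.3%), against 37 of 27025 genes with a promoter (0.137%). ERSE-II was found in Herpud1 and Dnajb11, 6.67% of the 30 against 0.0444% of all genes. Either motif was present in 12 of the 30 (40%) and in 0.181% of all genes. The 35 genes were listed as known parts of this response, so the larger share follows from the choice and is no test. The 5 genes without a promoter there were not searched. The other ERSE genes were Hsp90b1, which held more than 1 copy, Creld2, Pdia6 and Ero1lb. The promoters below are shown because the element they carry is shared across roles, from chaperones to degradation factors. Each runs 5′ to 3′ on the strand of its gene, lies before the RefSeq start site, and has the fixed letters of the motif in capitals. CGTGG with ATTGG after the spacer is the same element read from the other strand.
Hspa5 (chr2:34772020-34772048, plus strand): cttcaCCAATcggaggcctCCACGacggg
Calr (chr8:84847060-84847108, minus strand): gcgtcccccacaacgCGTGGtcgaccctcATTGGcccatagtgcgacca
Canx (chr11:50325785-50325833, minus strand): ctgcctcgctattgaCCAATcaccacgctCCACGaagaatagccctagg
Dnajc3 (chr14:118937812-118937860, plus strand): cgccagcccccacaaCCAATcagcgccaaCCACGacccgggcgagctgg
Syvn1 (chr19:6046517-6046565, plus strand): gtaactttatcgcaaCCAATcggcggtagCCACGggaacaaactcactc
Derl3 (chr10:75893227-75893275, plus strand): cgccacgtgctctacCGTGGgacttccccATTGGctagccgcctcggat
Herpud1 (ERSE-II, chr8:94386362-94386402, plus strand): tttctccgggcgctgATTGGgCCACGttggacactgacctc

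The Hspa5 stretch also lies inside the first exon of a longer annotated Hspa5 transcript, and the Herpud1 stretch lies in an intron of Gm15890, a gene on the opposite strand. The other stretches overlapped no annotated gene in GENCODE M21. Among the genes whose levels are described first below, Xbp1, Dnajb9 and Sec63 had no match to ERSE, to ERSE-II or to the 8-letter motifs TGACGTGG (an XBP1 site) and TGACGTCA (a cAMP response element, CRE) in this window. TGACGTGG was found in 0 of the 30 promoters and in 0.714% of all genes. TGACGTCA, which shares 6 letters with it, was found in Ppp1r15a alone, against 2.03% of all genes.

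Libraries held between 15713794 and 25926425 counts, so that a level of 1 CPM (counts scaled by library size) stood for 11.2 to 26.5 reads. Adipoq, which encodes adiponectin, was at 1692 to 3372 CPM in all 6 libraries, and none of the 12 adipocyte markers was at 0 in every library. Lep, which encodes leptin, was at 409 to 697 CPM in CONT and 0.415 to 512 CPM in CAC. The CAC libraries were not alike in Lep. CAC replicate 1 was at 512 CPM, inside the CONT range, while CAC replicates 2 and 3 were far below it. A pair of CONT libraries stood apart from the rest. In CONT replicate 1, 30.2% of counts came from the mitochondrial genome, against 3.89% to 5.04% in the other 5 libraries. In CONT replicate 3, the 8 epididymis markers summed to 11750 CPM, with Gpx5 alone at 5354 CPM, against 0.161 to 154 CPM elsewhere. Of the 35 genes, 23 were highest in CONT replicate 3 and 17 were lowest in CONT replicate 1, so results are given with and without these libraries. The part of epididymal tissue or of RNA quality in the results was not tested. In such bulk tissue, fewer cells of a type and less RNA per cell cannot be told apart.

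The chaperone system as a whole was not shifted beyond the spread between mice, whereas Xbp1, Dnajb9 and Sec63 were higher in every CAC library than in any CONT library. None of the 35 genes passed an adjusted p of 0.05 in edgeR's quasi-likelihood test, and neither did any of the 17296 genes tested (0%). At an unadjusted p under 0.05, 3 of the 35 were higher, where 6.31% of all genes were, and 1 was lower, where 6.95% of all genes were. The groups did not overlap for 3 genes that were higher (11.8% of all genes) and 2 that were lower (10.7% of all genes). These shares do not stand out from the background. The median log2 fold change of the 35 genes was -0.19, against -0.06 over all genes tested, with 14 genes on the higher side and 21 on the lower. Of the 35, 28 had a fold change under 0.5 on the log2 scale in either direction. CONT libraries spanned more than 2-fold in 14 of the genes, and CAC libraries in 3.

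The direction of the median turned on the CONT libraries. Without CONT replicate 1 the median was -0.27 and 26 genes were lower, and without CONT replicate 3 it was 0.20 and 20 genes were higher. The groups then did not overlap for 5 higher and 7 lower genes without CONT replicate 1 (19.5% and 21.2% of all genes), and for 8 higher and 2 lower without CONT replicate 3 (16.3% and 14.6%). At an unadjusted p under 0.05 in edgeR, 4 genes were higher and 2 lower without CONT replicate 1 (7.3% and 8.28% of all genes), and 3 were higher and 1 lower without CONT replicate 3 (5% and 4.25%). DESeq2, the tool of the study, called Xbp1 and Dnajb9 higher at adjusted p-values of 0.033 and 0.045, where it called 3.25% of all genes higher and 2.44% lower. Without CONT replicate 1 it called Derl3 lower and Ppp1r15a higher in their place (11.2% of all genes in either direction), without CONT replicate 3 it called Dnajb9, Sec63 and Xbp1 higher (4.87%), and without CAC replicate 3 it called none of the 35 (3.28%).

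**Figure D1:**
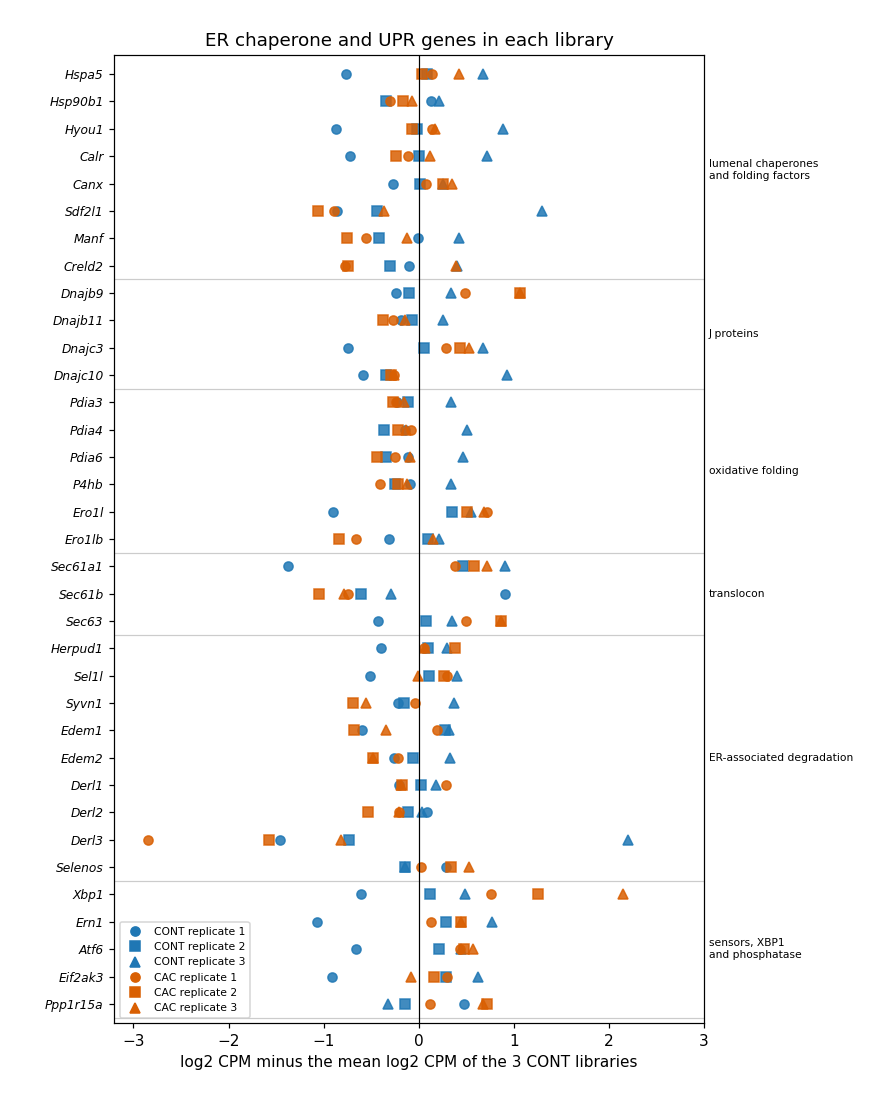
Level of each of the 35 genes in each library, as log2 CPM minus the mean log2 CPM of the 3 CONT libraries, grouped by role. CONT replicate 3 (blue triangles) is the highest library for 23 genes and CONT replicate 1 (blue circles) the lowest for 17, while the 3 CAC libraries lie to the right of all CONT libraries for Xbp1, Dnajb9 and Sec63.

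Of the sensors and signal carriers, Xbp1 stood apart. Xbp1 (ENSMUSG00000020484, chr11:5520659-5525893 on GRCm38, plus strand) encodes the transcription factor that IRE1 activates. It was at 123, 201 and 261 CPM in CONT replicates 1 to 3 and at 316, 444 and 824 CPM in CAC replicates 1 to 3, from 1374 to 21835 reads a library. The groups did not overlap, and CAC replicate 3 was far above the other libraries. The means were 195 ± 69.5 CPM in CONT and 528 ± 264 CPM in CAC (SD, n = 3 each), a log2 fold change of 1.44 (SE 0.45, edgeR adjusted p = 0.291). Without CAC replicate 3 the log2 fold change was 0.97, without CONT replicate 1 it was 1.20 and without CONT replicate 3 it was 1.72. All 6 neutrophil markers were also higher in every CAC library than in any CONT library, as were 11.8% of all genes. The 6 markers summed to 5.17 to 57.2 CPM in CONT and to 161, 253 and 1073 CPM in CAC replicates 1 to 3. S100a8 and S100a9 were the most abundant in CAC, and Ly6g lay at 0 to 3.25 CPM over all libraries. Csf3r did not follow the order of the sum, at 24.6, 21.3 and 23.5 CPM in CAC replicates 1 to 3. The plasma and B cell markers, whose cells are known for high Xbp1, were mostly lower. Of 12 tested, 10 were on the lower side. The groups did not overlap for 7 that were lower (10.7% of all genes) and for Irf4, which was higher (11.8%). All 13 summed to 428 to 1479 CPM in CONT and 214 to 1235 CPM in CAC. Only the sum of CAC replicate 2 lay in the CONT range, and Irf4 made up 1040 of its 1235 CPM. Ighm was at 344, 918 and 510 CPM in CONT and at 91.5, 73.7 and 21.7 CPM in CAC, Jchain was at 15.3 to 72.7 CPM in CONT and 3.85 to 9.98 CPM in CAC, while Irf4 was at 5.97 to 13.9 CPM in CONT and at 55.4, 1040 and 195 CPM in CAC. The part of neutrophils or of B-lineage cells in the Xbp1 level was not tested.

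The sensors themselves differed less than the spread between libraries. Ern1, which encodes IRE1, was at 15.9, 40.6 and 56.8 CPM in CONT and 36.3, 45.2 and 45.3 CPM in CAC (log2 fold change 0.16, SE 0.43). Atf6 was at 32.4, 59.5 and 69.8 CPM in CONT and 69.1, 71.4 and 76.2 CPM in CAC (0.42, SE 0.29), and only CONT replicate 3 reached the CAC range. Without CONT replicate 1 the log2 fold change of Atf6 was 0.17, and without CONT replicate 3 it was 0.66. Eif2ak3, which encodes PERK, was at 12.1, 27.9 and 35.3 CPM in CONT and 28.2, 25.6 and 21.6 CPM in CAC, both groups having a mean of 25.1 CPM. In all of these CONT replicate 1 was the lowest library. Ppp1r15a encodes GADD34, the subunit that directs a phosphatase to eIF2α and so reverses the action of PERK. It was at 28.7, 18.6 and 16.5 CPM in CONT and 22.5, 33.9 and 33.0 CPM in CAC (0.49, SE 0.29), and here CONT replicate 1 was the highest CONT library. Without it, Ppp1r15a had a log2 fold change of 0.78. Tulp2, which overlaps Ppp1r15a on the other strand, was assigned 66.8% as many reads, so the Ppp1r15a count is uncertain.

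**Figure D2:**
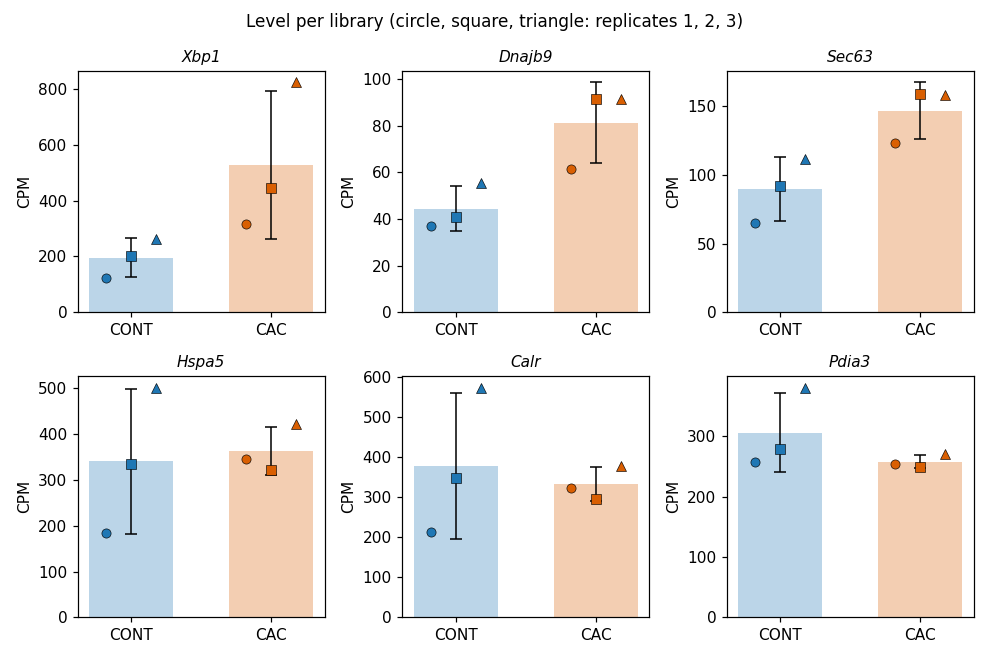
Level in CPM of Xbp1, Dnajb9, Sec63, Hspa5, Calr and Pdia3 in the 3 CONT and 3 CAC libraries, with bars for the mean, error bars for the SD and one point for each library. In the upper panels every CAC point lies above every CONT point, and in the lower panels the CAC points lie within the range of the CONT points or just below it.

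The J proteins stimulate the ATPase of BiP. Dnajb9 (ENSMUSG00000014905, chr12:44205559-44210326, minus strand) encodes ERdj4, which is a known XBP1 target and a repressor of IRE1. It was at 37.0, 40.8 and 55.6 CPM in CONT and 61.4, 91.3 and 91.4 CPM in CAC. The groups did not overlap, with means of 44.4 ± 9.80 and 81.4 ± 17.3 CPM (SD, n = 3 each). The log2 fold change was 0.87 (SE 0.25, edgeR adjusted p = 0.275), and it stayed between 0.77 and 1.09 whichever library was left out. Dnajb9 was first among the 35 genes by p and had an unadjusted p under 0.05 in each of the 6 fits that left out 1 library. In CPM, the groups overlapped for the other 3 J proteins. Dnajc3, which encodes the PERK inhibitor p58IPK, was at 71.9, 125 and 193 CPM in CONT and 147, 162 and 174 CPM in CAC (0.31, SE 0.36). The log2 fold change of Dnajc3 was 0.027 without CONT replicate 1 and 0.72 without CONT replicate 3. Dnajb11, which encodes ERdj3, lay at 54.5 to 74.1 CPM in CONT and 47.7 to 56.2 CPM in CAC (-0.27, SE 0.18). Dnajc10, a reductase that aids degradation, was at 51.6, 61.3 and 148 CPM in CONT and 64.8, 63.4 and 64.8 CPM in CAC. Its log2 fold change of -0.43 became 0.20 without CONT replicate 3, and without that library the groups overlapped neither for Dnajc10 nor for Dnajc3.

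The translocon is the channel through which new chains enter the ER, and its 3 genes went different ways. Sec63 (ENSMUSG00000019802, chr10:42761496-42832514, plus strand) encodes the membrane J protein that recruits BiP to the channel. It was at 64.9, 92.3 and 111 CPM in CONT and 123, 159 and 159 CPM in CAC. Again the groups did not overlap, with a log2 fold change of 0.72 (SE 0.25, edgeR adjusted p = 0.327) that ranged from 0.54 to 0.92 with 1 library left out. Sec61b, which encodes the small beta subunit of the channel, was at 120, 42.0 and 52.2 CPM in CONT and 38.2, 31.0 and 37.2 CPM in CAC. Every CAC library was below every CONT library (-1.01, SE 0.41, edgeR adjusted p = 0.367), but CONT replicate 1 set most of the size, which was -0.40 without it. Sec61a1, the pore subunit, was at 26.4 to 129 CPM in CONT and 89.4 to 113 CPM in CAC, CONT replicate 1 being far below the rest. Its log2 fold change was 0.29 (SE 0.52), and -0.13 without CONT replicate 1.

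A ratio of reads within a library does not depend on its scaling. For each 100 reads of the other 34 genes, Xbp1 had 3.93, 5.59 and 5.05 reads in CONT and 8.56, 12.2 and 20.3 reads in CAC. Dnajb9 had 1.16, 1.08 and 1.03 reads in CONT and 1.56, 2.28 and 1.91 in CAC. Sec63 had 2.05, 2.48 and 2.09 in CONT and 3.17, 4.04 and 3.35 in CAC. By this measure, all 3 CAC libraries were above all 3 CONT libraries for 4 of the 35 genes, these and Dnajc3, which had 2.27, 3.40 and 3.67 reads in CONT and 3.81, 4.11 and 3.69 in CAC. All 3 were below for 7 genes (Sdf2l1, Manf, Dnajb11, Pdia3, P4hb, Sec61b and Edem2). Over all genes tested, set against the reads of the same genes, 7% were higher and 6.63% lower in this way. The reads of Xbp1 are part of the total for every other gene, so its level enters their ratios.

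**Figure D3:**
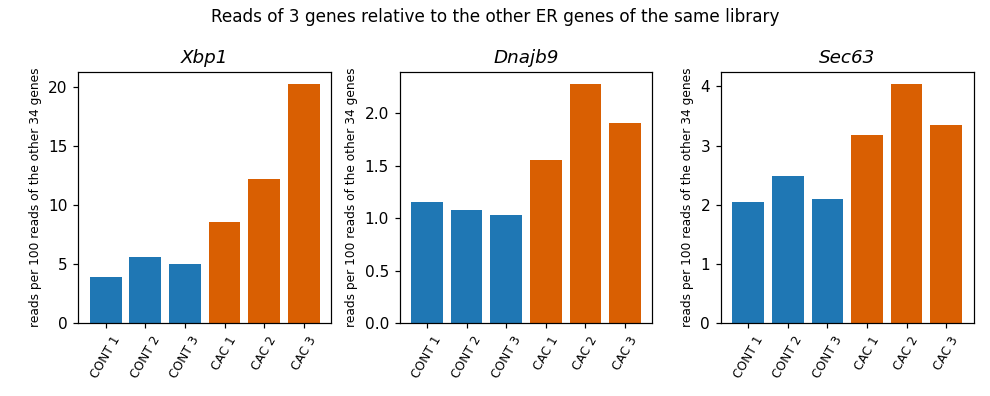
Reads of Xbp1, Dnajb9 and Sec63 for each 100 reads of the other 34 genes of the same library, one bar for each library and axes from 0. The 3 CAC bars are above the 3 CONT bars in each panel, from 8.56 to 20.3 against 3.93 to 5.59 for Xbp1.

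The lumenal chaperones are the classic targets of the response. Hspa5 was at 185, 335 and 502 CPM in CONT and 346, 323 and 422 CPM in CAC. CONT replicates 1 and 3 lay on either side of all CAC libraries, and the means were 341 ± 158 and 364 ± 51.9 CPM (log2 fold change 0.09, SE 0.38). Hsp90b1, which encodes GRP94, was at 351, 252 and 373 CPM in CONT and 260, 287 and 305 CPM in CAC (-0.20, SE 0.24). Calr and Canx encode the lectin chaperones calreticulin and calnexin, which hold glycoproteins during folding. Calr was at 212, 349 and 574 CPM in CONT and 323, 295 and 379 CPM in CAC (-0.19, SE 0.38). Canx was at 177 to 255 CPM in CONT and 226 to 273 CPM in CAC (0.21, SE 0.22). Hyou1, a chaperone that also exchanges the nucleotide of BiP, was at 37.4, 67.1 and 126 CPM in CONT and 75.0, 65.1 and 76.6 CPM in CAC (-0.09, SE 0.42). Hspa5 took the opposite sign without CONT replicate 1 (-0.19), and Hyou1 and Calr did without CONT replicate 3 (0.48 and 0.26).

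Smaller secreted or lumenal factors were on the lower side. Sdf2l1, a partner of ERdj3, was at 10.3, 13.7 and 45.5 CPM in CONT and 9.98, 8.88 and 14.4 CPM in CAC. CONT replicate 3 was far above the rest, and the log2 fold change of -1.06 (SE 0.59, edgeR adjusted p = 0.466) was -0.10 without it. Manf, a secreted factor that binds BiP, was at 61.3, 46.2 and 82.7 CPM in CONT and 41.9, 36.6 and 56.6 CPM in CAC (-0.49, SE 0.28, and -0.24 without CONT replicate 3). Manf shares its locus with Dcaf1 and Rbm15b, which were assigned 74.5% and 78.0% as many reads, so its count is uncertain. Creld2 was at 27.0 to 43.8 CPM in CONT and 19.4 to 43.8 CPM in CAC (-0.29, SE 0.38), which was -0.78 without CAC replicate 3 and -0.049 without CAC replicate 1. None of the 8 genes of this group had groups that did not overlap or an unadjusted p under 0.05, and 7 of them were highest in CONT replicate 3.

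The 4 disulfide isomerase genes were on the lower side with all libraries, by an amount that CONT replicate 3 decided. Without it the log2 fold changes were -0.044 for Pdia3, -0.063 for P4hb, -0.015 for Pdia6 and 0.12 for Pdia4. Pdia3, which acts on glycoproteins held by calreticulin, was at 257, 280 and 381 CPM in CONT and 255, 249 and 270 CPM in CAC (-0.25, SE 0.23). P4hb, the founding disulfide isomerase, was at 306 to 461 CPM in CONT and 275 to 333 CPM in CAC (-0.27, SE 0.24). Pdia4 (-0.19, SE 0.26) and Pdia6 (-0.30, SE 0.27) were likewise highest in CONT replicate 3. The oxidases that recharge the isomerases were on opposite sides. Ero1l was at 9.90, 23.6 and 27.1 CPM in CONT and 30.4, 26.3 and 29.9 CPM in CAC (0.51, SE 0.37), which was 0.20 without CONT replicate 1 and 0.80 without CONT replicate 3. Ero1lb was at 15.2 to 21.9 CPM in CONT and 10.5 to 21.0 CPM in CAC (-0.40, SE 0.33), which ranged from -0.76 without CAC replicate 3 to -0.20 without CAC replicate 2. The groups overlapped for all 6 genes.

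Among the 9 genes of ER-associated degradation, the largest fold change was that of Derl3, one of the derlins that help to draw proteins out of the ER. Derl3 had 24, 81 and 599 reads in CONT replicates 1 to 3, which is 2.14, 3.55 and 27.1 CPM. It had 20, 49 and 89 reads in CAC replicates 1 to 3, or 0.822, 1.98 and 3.36 CPM. CONT replicate 3 was 7.63-fold above CONT replicate 2 and the other 5 libraries overlapped. The log2 fold change was -2.41 (SE 1.07, edgeR adjusted p = 0.396) with all libraries. It was -0.46 without CONT replicate 3, the library with the highest sum of epididymis markers. Derl2 was at 59.8, 52.1 and 57.9 CPM in CONT and 48.8, 38.9 and 49.0 CPM in CAC, with no overlap (-0.31, SE 0.17, edgeR adjusted p = 0.465). Mis12, which overlaps Derl2, was assigned 37.2% as many reads, so that count is uncertain. Derl1 lay at 189 to 246 CPM in CONT and 190 to 264 CPM in CAC (-0.02, SE 0.23).

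The ubiquitin ligase complex and the mannosidase-like factors that feed it held genes on both sides with all libraries. Without CONT replicate 1, 8 of the 9 degradation genes were on the lower side, 4 of them without overlap (21.2% of all genes), and the other was higher without overlap (19.5%). Sel1l (0.15, SE 0.27) and Herpud1 (0.15, SE 0.23), which scaffold the complex, were on the higher side, but at -0.053 and -0.011 without CONT replicate 1 and at 0.38 and 0.32 without CONT replicate 3. The ligase gene Syvn1, which encodes HRD1, was at 62.4, 65.5 and 94.2 CPM in CONT and 71.0, 45.0 and 49.5 CPM in CAC (-0.42, SE 0.26, and -0.20 without CONT replicate 3). Its count is uncertain because Mrpl49 overlaps it and was assigned 61.2% as many reads. Edem1 was at 65.9 to 125 CPM in CONT and 62.4 to 114 CPM in CAC (-0.29, SE 0.33). Edem2 was at 35.1, 40.2 and 52.7 CPM in CONT and 36.3, 30.2 and 30.2 CPM in CAC (-0.41, SE 0.21, edgeR adjusted p = 0.447), with only CAC replicate 1 inside the CONT range. With 1 library left out, the log2 fold change of Edem1 ranged from -0.52 without CONT replicate 1 to -0.096 without CAC replicate 2, and that of Edem2 from -0.52 without CONT replicate 1 to -0.21 without CONT replicate 3. Selenos, a selenoprotein of the same machinery, was at 48.7 to 65.9 CPM in CONT and 54.7 to 77.6 CPM in CAC (0.30, SE 0.22).

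**Figure D4:**
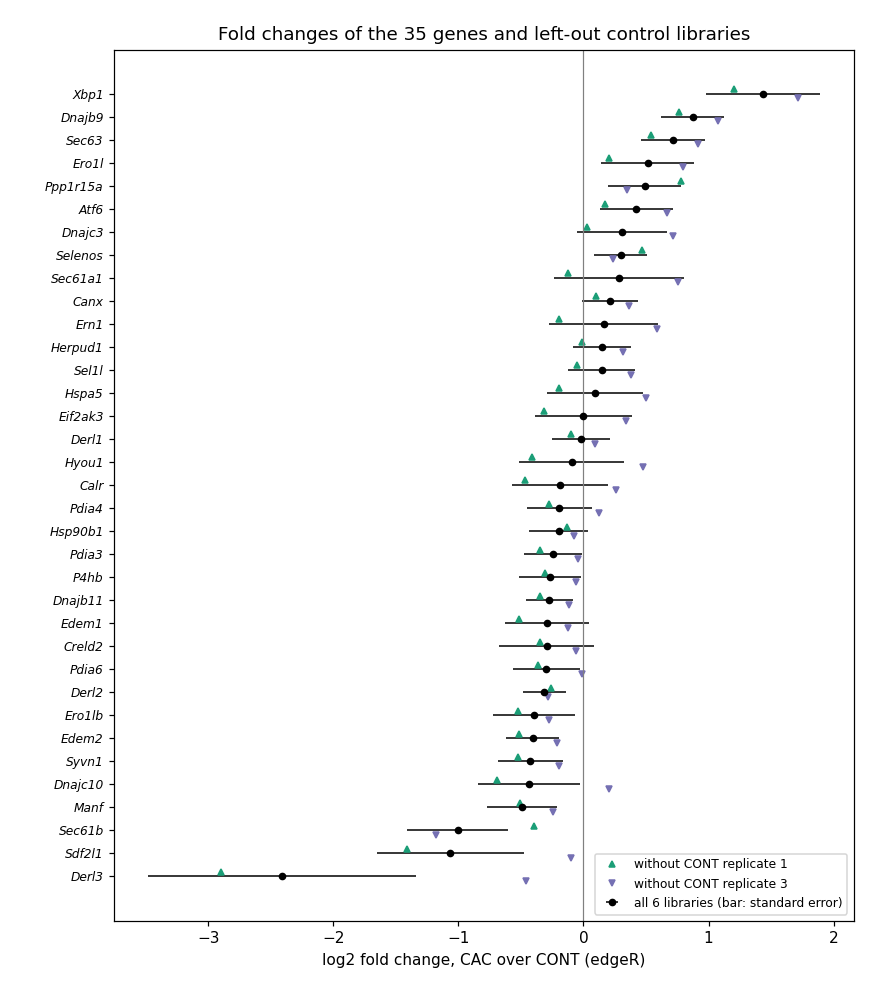
Log2 fold change of CAC over CONT for the 35 genes from edgeR, with all 6 libraries (black, bar for the standard error) and without CONT replicate 1 or CONT replicate 3. Xbp1, Dnajb9 and Sec63 stay on the higher side in all 3 fits, while Hspa5, Hyou1, Calr and Dnajc10 change side with a left-out library.

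Per kilobase of the gene's counted length, Calr (131 CPM per kb), P4hb (129), Pdia3 (97.5), Hsp90b1 (80.7) and Hspa5 (80.6) were the most abundant in CONT. Xbp1 came after these and after Derl1 (65.6) in CONT, and had the highest mean in CAC at 163 CPM per kb, ahead of Calr at 115. In CAC replicate 1 alone, Calr (112) was above Xbp1 (97.3). The least abundant in CONT were Ero1lb (2.87), Ero1l (3.82), Eif2ak3 (4.16) and Ern1 (4.62), and neighbours in this low order lay within their SD. Derl3 was lower still in CONT replicates 1 and 2, at 1.07 and 1.78 CPM per kb, but at 13.6 in CONT replicate 3. The 35 genes together took 0.331%, 0.456% and 0.609% of the nuclear counts of CONT replicates 1 to 3 and 0.411%, 0.466% and 0.524% of those of CAC replicates 1 to 3. The 95% Wilson interval, which covers counting error only, ran from 0.327% to 0.334% for the lowest share and from 0.606% to 0.613% for the highest. The 3 CAC shares thus lay inside the range of the CONT shares. Summed levels of the lumenal chaperones were 1066 to 2003 CPM in CONT and 1290 to 1571 CPM in CAC.

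Beyond these 35 genes, 115 of 118 further genes of the same pathways were tested. Of these, 61 were on the higher and 54 on the lower side, with a median log2 fold change of 0.05. By edgeR none passed the adjusted threshold, and 6 higher and 9 lower had an unadjusted p under 0.05, where 6.31% and 6.95% of all genes did. DESeq2 called 5 of them higher and 4 lower (3.25% and 2.44% of all genes). The PERK and ATF4 branch held 4 of the 6 on the higher side. Of its 13 tested genes, 9 were on the higher side, the median was 0.35, and 4 higher and 1 lower had an unadjusted p under 0.05.

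Asns, the asparagine synthetase gene and a known ATF4 target, was at 57.3, 46.2 and 60.3 CPM in CONT and 155, 179 and 189 CPM in CAC (1.67, SE 0.20, edgeR adjusted p = 0.127, DESeq2 adjusted p = 1.7e-11). Chac1, which degrades glutathione, was at 3.12, 7.01 and 7.59 CPM in CONT and 22.3, 43.7 and 45.4 CPM in CAC (2.64, SE 0.45). The groups did not overlap for either gene. Sesn2 (1.54, SE 0.35), a stress-induced inhibitor of mTORC1, and Ppp1r15b (0.86, SE 0.21), the constitutive partner of the eIF2α phosphatase, were also higher in every CAC library. Bbc3, which encodes the apoptosis factor PUMA, was lower in every CAC library (-2.31, SE 0.45). Atf4 itself was at 311, 82.9 and 94.4 CPM in CONT and 117, 136 and 138 CPM in CAC, so that CONT replicate 1 decided its direction (-0.32, and 0.57 without that library).

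The other lists were mixed, and their counts stand against the same 6.31% of all genes higher and 6.95% lower. Of 37 other folding and disulfide factors, 1 was higher and 5 lower at an unadjusted p under 0.05. Qsox1, a sulfhydryl oxidase, was higher (0.88, SE 0.25), while the calcium-binding proteins Rcn1 (-1.70, SE 0.49) and Nucb2 (-1.23, SE 0.38) and the prolyl isomerases Fkbp11 (-2.15, SE 0.67) and Fkbp10 (-0.59, SE 0.22) were lower. CONT replicate 3 was the highest library for Rcn1, Fkbp11 and Nucb2. Without it these values were -1.11 for Rcn1, -1.18 for Fkbp11 and -0.86 for Nucb2. With CONT replicates 1 and 3 both left out, they were -0.78 for Rcn1, -0.85 for Fkbp11 and -0.19 for Nucb2. Of 22 other degradation factors none passed that threshold, the first by p being Ngly1 (0.52, SE 0.23), followed by Rhbdd1, Herpud2, Erlin2 and Edem3. Of 27 translocation and glycosylation factors 2 were lower, the signal peptidase subunit Sec11c (-0.93, SE 0.25) and the oligosaccharyltransferase subunit Ostc (-0.70, SE 0.19), ahead of Magt1, Srp72 and Spcs2. Of 16 other signalling genes, Creb3l1, a collagen-linked relative of ATF6, was lower at 23.7, 13.5 and 12.5 CPM in CONT and 5.83, 6.46 and 4.08 CPM in CAC (-1.60, SE 0.36), and Crebrf was higher (0.74, SE 0.24), ahead of Map3k5, Mbtps2 and Tmbim6. Of the 9 fibroblast markers, 8 were on the lower side. An unadjusted p under 0.05 was reached by 7 of them (6.95% of all genes), and 6 had no overlap (10.7%). The median log2 fold change of the 9 markers was -1.46. Their sum was 2607 to 3257 CPM in CONT and 1441 to 2409 CPM in CAC, much of it from Dcn, the marker on the higher side. The part of fibroblasts in these values was not tested.

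**Figure D5:**
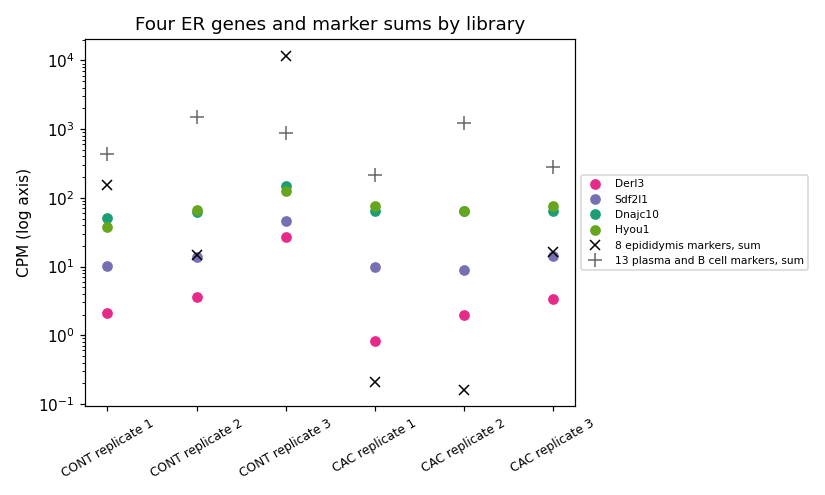
Level in CPM (log axis) of Derl3, Sdf2l1, Dnajc10 and Hyou1 in each library, beside the summed CPM of 8 epididymis markers and of 13 plasma and B cell markers. Irf4 makes up 1040 of the 1235 CPM of the plasma and B cell sum in CAC replicate 2. All 4 genes and the sum of the epididymis markers are highest in CONT replicate 3, where that sum is 11750 CPM.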

How the data were processed

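Poly(A) RNA from eWAT of 3 CONT and 3 CAC mice was sequenced, 1 library a mouse per the methods. Per the labels and methods, the authors aligned reads with HISAT2 2.0.5 to Ensembl release 94 (GRCm38) and deposited read counts per gene from featureCounts 1.5.0-p3. The authors also deposited FPKM, which are counts scaled by gene length and library size. The strand setting of the counting is not given in the sources used here, so overlapping genes cannot be told apart. There were 0 columns of other samples.

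Counts were filtered by group, scaled by TMM and tested with edgeR 4.0.16 (robust quasi-likelihood, R 4.3.3) over all genes, with Benjamini-Hochberg adjustment and a threshold of 0.05. The prior count was 0.125. CPM use TMM-scaled library sizes, and the SE is the log2 fold change divided by the square root of F. Scripts were tested on simulated data. Alternatives were DESeq2 1.42.0, limma 3.58.1 (voom with quality weights, and log2(FPKM + 1) or log2(FPKM + 0.1) for genes with FPKM of at least 0.5 in 3 libraries), other scalings and filters, a replicate block and left-out libraries. DESeq2 without CONT replicate 3, and the fit without CONT replicates 1 and 3, were added after seeing the data. Depth was 15713794 to 25926425 counts per library.

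All 35 genes are named. Values in every library are given for genes whose groups do not overlap, for the 10 with the smallest p, and for the sensors and main chaperones. Of each further list, the 5 genes with the smallest p are named, and Atf4 was added after its values were seen. The genes and lists were chosen with earlier results of these data known.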

Additional observations from a re-analysis of the deposited data

How the results depend on the processing

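With 3 libraries a group, a common dispersion of 0.265 and a pair of CONT libraries that stood apart in opposite directions, small shifts of these genes were not detectable. Xbp1, Dnajb9 and Sec63 kept their direction in all 21 alternative settings. Their smallest and largest adjusted p over these settings were 0.022 and 0.684 for Xbp1, 0.0079 and 0.684 for Dnajb9, and 0.018 and 0.702 for Sec63. The cause of the changes below was not tested, and counts are of the 35 genes unless the 115 further pathway genes are named. The share over all genes also varies with the setting. A count without that share beside it shows only how the setting moved it, and is no result about these genes.

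Replicate numbers did not pair the samples: the deviations of same-numbered libraries correlated at 0.24, -0.25 and -0.28. With the replicate block, 3 genes were lower at an unadjusted p under 0.05 in place of 1, none passed the adjusted threshold, and the signs of Hyou1 (0.073) and Eif2ak3 (0.11) turned.

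Leaving out 1 library at a time, the count at an unadjusted p under 0.05 ranged from 1 to 4 higher and from 0 to 2 lower, that of genes whose groups did not overlap from 3 to 8 higher and from 2 to 9 lower, and the median log2 fold change from -0.27 to 0.20. Among the pathway genes, 5 to 12 were higher at an unadjusted p under 0.05. Log2 fold changes that changed sign ranged from -0.19 to 0.50 for Hspa5, -0.41 to 0.48 for Hyou1, -0.47 to 0.26 for Calr, -0.69 to 0.20 for Dnajc10, -0.36 to 0.12 for Pdia4, -0.13 to 0.76 for Sec61a1, -0.011 to 0.32 for Herpud1, -0.053 to 0.38 for Sel1l, -0.14 to 0.090 for Derl1, -0.19 to 0.59 for Ern1 and -0.32 to 0.34 for Eif2ak3. Of those that kept their sign, values that 1 library moved by over 1.5 times include Canx (0.10 to 0.36), Hsp90b1 (-0.35 to -0.076), Dnajb11 (-0.35 to -0.12), Derl2 (-0.36 to -0.20), Selenos (0.18 to 0.47) and the genes whose left-out values stand with the results.

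With RLE scaling 0 genes were lower at an unadjusted p under 0.05, 4 were lower without overlap, and Eif2ak3 was at 0.017. With upper-quartile scaling 5 were lower without overlap. With no filter on low counts 5 were higher and 1 lower without overlap, 10 pathway genes were higher at an unadjusted p under 0.05, Derl1 was at 0.060 and Eif2ak3 at 0.083. Without mitochondrial genes 5 were higher without overlap, 0 were lower at an unadjusted p under 0.05, Derl1 was at 0.016 and Eif2ak3 at 0.046. With limma on FPKM 0 were lower at an unadjusted p under 0.05 at either pseudocount, Hyou1 was at 0.072 and 0.098, and Eif2ak3 at 0.088 and 0.14 (pseudocounts 1 and 0.1). With voom and quality weights 5 were higher and 7 lower at an unadjusted p under 0.05, 14 pathway genes were higher by that measure and 5 passed the adjusted threshold, and Hspa5 (-0.17), Sec61a1 (-0.00047) and Ern1 (-0.061) changed sign.

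DESeq2 called 2 genes and 9 pathway genes at its adjusted threshold, with 2 lower at an unadjusted p under 0.05, Derl1 at 0.0065 and Eif2ak3 at 0.032. DESeq2 without CONT replicate 1 called 2 and 13, with 5 genes higher and 3 lower at an unadjusted p under 0.05, 5 higher without overlap and 14 pathway genes higher at an unadjusted p under 0.05, and Hspa5 (-0.15), Sec61a1 (-0.084), Sel1l (-0.012) and Ern1 (-0.15) changed sign. DESeq2 without CAC replicate 3 called 0 and 6, with 3 lower at an unadjusted p under 0.05, 5 higher and 9 lower without overlap, Derl1 at 0.097 and Eif2ak3 at 0.14. DESeq2 without CONT replicate 3 called 3 and 7, with 6 higher at an unadjusted p under 0.05, 11 higher without overlap, a median of 0.22 and 20 pathway genes higher at an unadjusted p under 0.05, and Hyou1 (0.51), Calr (0.29), Dnajc10 (0.22), Pdia4 (0.14), Pdia6 (0.0051), Derl1 (0.11) and Eif2ak3 (0.38) changed sign.

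With CONT replicates 1 and 3 both left out, which leaves 1 CONT library that is assumed to vary like the CAC libraries, 0 were lower at an unadjusted p under 0.05, 17 were higher without overlap, the median was 0.19, and 2 pathway genes were lower at an unadjusted p under 0.05. Hsp90b1 (0.29), Hyou1 (0.22), Calr (0.044), Manf (0.078), Creld2 (0.15), Dnajc10 (0.19), Pdia4 (0.34), Pdia6 (0.21), P4hb (0.12) and Derl1 (0.085) then changed sign. The count of 17 has no share over all genes beside it. With 1 CONT library the groups avoid overlap more easily than with 3, so that count is no evidence of a shift. In the 250 bases upstream alone, ERSE was in 10 promoters and ERSE-II in 1.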
